A study of Rattus norvegicus with 29 samples.

Results

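The miR-29 family is a group of microRNAs (miRNAs) made from 4 hairpin genes in the rat. Its members in the plasma miRNA counts were the rows named miR-29a, miR-29b or miR-29c, with any copy number and either arm, and 7 of the 754 miRNAs in the table met this rule: rno-miR-29a-3p, rno-miR-29b-3p, rno-miR-29c-3p, rno-miR-29a-5p, rno-miR-29b-1-5p, rno-miR-29b-5p and rno-miR-29c-5p. The species prefix is left out from here on. The counts came from small RNA sequencing of plasma drawn 48 h after surgery from 29 adult male Sprague-Dawley rats at the study sites UEF, Monash and UCLA. UEF had 12 rats (4 sham, 4 TBI−, 4 TBI+), Monash 8 (3, 3, 2) and UCLA 9 (3, 3, 3). Sham rats were operated experimental controls, TBI rats had a traumatic brain injury by lateral fluid percussion, and TBI+ rats developed epilepsy later while TBI− rats did not. Blood was taken from the tail vein of every rat under isoflurane. Per the study's methods the rats of each site had their own vendor, UEF rats lived alone before surgery and the others in groups, and the UCLA rats received antibiotics and another analgesic, so that these differences and the site cannot be told apart.

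A miRNA hairpin yields a 5p and a 3p arm. For miR-29 the 3p arm is the guide strand that is loaded to silence messages, while the 5p arm is the passenger strand and is mostly degraded. The 3p arms are known for repressing collagens and other extracellular matrix genes, DNA methyltransferases and pro-apoptotic genes, and in brain they rise as neurons and astrocytes mature. Plasma miRNAs come from blood cells, vessels, liver, muscle and other organs, so that a level in plasma has no single cell of origin, and fewer cells of a type and less RNA per cell cannot be told apart in such samples.

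The mature sequences show which members can act on the same targets. All 7 matched an entry of RefSeq (build GRCr8), and they are written 5′ to 3′ with the seed (bases 2 to 8) in capitals, first the 3p arms and then the 5p arms.
miR-29a-3p: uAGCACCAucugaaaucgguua
miR-29b-3p: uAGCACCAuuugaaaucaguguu
miR-29c-3p: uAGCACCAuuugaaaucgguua
miR-29a-5p: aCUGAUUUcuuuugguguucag
miR-29b-1-5p: uUUCAUAUggugguuuagauuu
miR-29b-5p: cUGGUUUCacaugguggcuuag
miR-29c-5p: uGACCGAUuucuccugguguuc
The 3p arms had 1 seed, AGCACCA, in common, and none of the other miRNAs in the table with a RefSeq sequence (674 of 754 had one) carried it. Counted from the 5′ end, miR-29a-3p and miR-29c-3p differed by the substitution C10U alone and were identical at 21 of 22 bases. miR-29a-3p and miR-29b-3p differed by C10U, G18A, U21G and A22U. The methods name Bowtie as the aligner but not the mismatches allowed, so the split of counts between miR-29a-3p and miR-29c-3p is uncertain to that extent. Each of the 4 5p arms had a seed of its own, shared with no other of the 674 miRNAs in the table that had a RefSeq sequence.

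In GRCr8, which is not the build the reads were mapped to (Rnor_6.0), the hairpins lay as pairs on 2 chromosomes. Mir29a (chr4:60617955-60618042) and Mir29b1 (chr4:60618334-60618414) were on the minus strand with 291 bases between them. Mir29b2 (chr13:109098831-109098911) and Mir29c (chr13:109099359-109099446) were on the plus strand with 447 bases between them. miR-29b-3p had the same mature sequence in Mir29b1 and Mir29b2, so its count is the sum over both, whereas miR-29b-1-5p (Mir29b1) and miR-29b-5p (Mir29b2) had their own sequences.

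Total miRNA counts ranged from 1162307 to 5223469 per rat (median 2713557), and 751 of the 754 miRNAs passed the count filter, all 7 members among them. Levels are given as CPM, the read count scaled to a common library total with TMM factors. In one rat, UEF sham 3, the liver miRNA miR-122-5p took 55.1% of all counts and the TMM factor was 0.333, against 0.644 to 1.76 in the other rats, so results that rest on this rat are given with and without it. The other UEF sham rats also had high shares of miR-122-5p (from 28.1%), and the share over all rats began at 0.634%.

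The family took 0.798% of all miRNA counts in the median rat, from 0.319% to 1.48%. miR-29a-3p alone made up 86.8% of the family's counts on average (80.5% to 91.2% over the 29 rats) and ranked 29 of 754 by mean share of counts. miR-29c-3p followed with 6.95% of the family (rank 85) and miR-29b-3p with 5.17% (rank 98). The 5p arms were rare, from 0.12% of the family for miR-29b-1-5p to 0.34% for miR-29b-5p, and their ranks ran from 470 (miR-29c-5p) to 706 (miR-29b-1-5p). The guide strands thus carried nearly all counts in every rat. The median count was 15592 for miR-29a-3p, while miR-29b-1-5p had fewer than 10 counts in 5 of the 29 rats (24 had at least 10) and as few as 4, so its values are the least precise.

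Rats differed widely in the 3p arms. miR-29a-3p ran from 2290.0 CPM in UCLA sham 2 to 22687 CPM in UEF sham 3, and its SD over the 29 rats was 0.77 on the log2 CPM scale. miR-29b-3p had the same SD (0.77) and miR-29c-3p a larger one (0.90), which put them at percentiles 73.4 (miR-29a-3p), 73.2 (miR-29b-3p) and 81.1 (miR-29c-3p) of the SDs of the 751 miRNAs. The 5p arms varied less: miR-29a-5p had an SD of 0.66, miR-29c-5p 0.62, miR-29b-1-5p 0.62 and miR-29b-5p 0.48, the last in the lower part of the SDs of all miRNAs. The high CPM of UEF sham 3 depends on its TMM factor of 0.333. Before scaling, the family took 0.880% of the counts of this rat, against 0.798% in the median rat. The SDs were not computed without UEF sham 3.

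The order of the groups was not the same for all members. In mean log2 CPM (± SD), miR-29a-3p fell in the order UEF sham (13.11 ± 1.05, n = 4), Monash TBI− (12.98 ± 0.34, n = 3), UCLA TBI+ (12.92 ± 0.77, n = 3), UEF TBI− (12.88 ± 0.76, n = 4), Monash sham (12.86 ± 0.66, n = 3), UEF TBI+ (12.76 ± 0.92, n = 4), Monash TBI+ (12.34 ± 0.04, n = 2), UCLA TBI− (12.02 ± 0.74, n = 3) and UCLA sham (11.91 ± 0.66, n = 3). UEF sham was also highest for miR-29c-3p (10.06 ± 0.95) and miR-29c-5p (5.36 ± 1.08), and UCLA TBI− lowest for both (7.88 ± 0.44 and 3.94 ± 0.58). The UEF sham means include UEF sham 3, at 14.47 for miR-29a-3p, 11.46 for miR-29c-3p and 6.70 for miR-29c-5p. UEF sham 1, 2 and 4 were at 12.67, 13.30 and 12.00 for miR-29a-3p. For miR-29c-3p they were at 9.59, 9.81 and 9.39, and for miR-29c-5p at 4.16, 5.64 and 4.92. The order of the groups was not made without UEF sham 3. Of the other guide strand, miR-29b-3p, Monash TBI− had most (9.31) and UCLA sham least (7.57). The passenger strands miR-29a-5p, miR-29b-1-5p and miR-29b-5p were highest in Monash TBI+ rats (4.85, 3.43 and 5.30, n = 2). With the 9 groups of site and condition put in order of mean log2 CPM for each member, 1 step between neighbours was larger than the larger SD of the 2 groups, that of miR-29b-5p from Monash TBI+ to UEF TBI+ (0.49, SD 0.35). All other neighbours in these orders were closer than their spread.

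**Figure D1:**
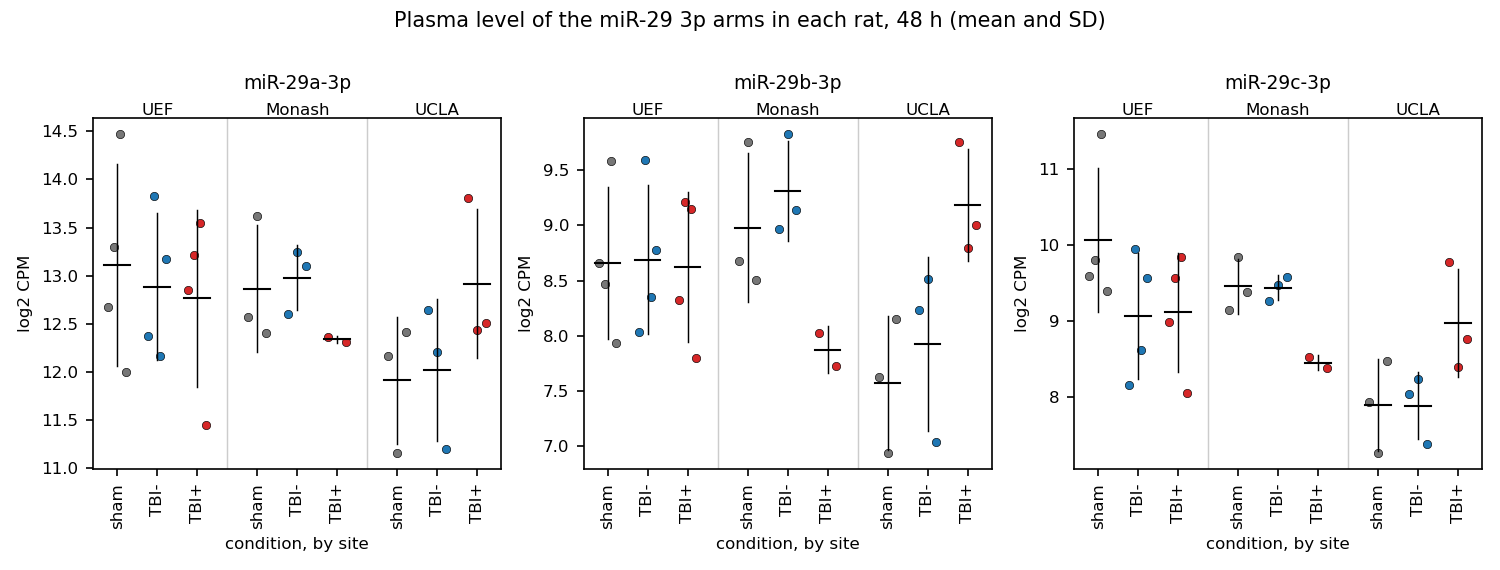
Level of miR-29a-3p, miR-29b-3p and miR-29c-3p (log2 CPM) in each of 29 rats by site and condition. Points are rats, long horizontal bars the group mean and vertical lines its SD. Many groups overlap, but not all. For miR-29c-3p, for example, UCLA sham rats (153 to 353 CPM) lie below UEF sham (669 to 2812 CPM) and Monash sham rats (562 to 918 CPM). For miR-29b-3p, Monash TBI+ rats (211 and 259 CPM) lie below Monash TBI− rats (500 to 907 CPM). The share of all miRNAs that part these groups was not counted. UEF sham 3 is the highest point for miR-29a-3p (22687 CPM) and miR-29c-3p (2812 CPM).

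The first comparison asked whether injury changed the family. Between TBI (n = 19) and sham rats (n = 10), with site in the model, none of the 7 members differed at an edgeR adjusted p under 0.05. Of all miRNAs tested, 1.2% did (0.666% higher, 0.533% lower). No member had an unadjusted p under 0.05 and DESeq2 called 0. miR-29a-3p had a lowest, median and highest level of 2290.0, 5753 and 22687 CPM in sham, 2355, 6293 and 14485 CPM in TBI− and 2791, 5839 and 14322 CPM in TBI+ rats. The 3 conditions overlapped over most of their range. On the log2 scale the TBI to sham change of miR-29a-3p was −0.04 (SE 0.29, 95% interval −0.61 to 0.53, edgeR adjusted p = 0.974).

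The other members lay on both sides of 0. The 2 arms of miR-29c had the lowest values: miR-29c-3p was at −0.40 (log2, SE 0.30, edgeR adjusted p = 0.712) and miR-29c-5p at −0.45 (SE 0.23, edgeR adjusted p = 0.519). miR-29b-1-5p was at −0.10 (SE 0.32). miR-29b-3p (0.26, SE 0.29), miR-29a-5p (0.32, SE 0.27) and miR-29b-5p (0.32, SE 0.20) had values above 0, with edgeR adjusted p from 0.605 to 0.830. The median over the members was −0.04 and over all miRNAs tested 0.03. Leaving out UEF sham 3 gave 0.23 for miR-29a-3p, −0.05 for miR-29c-3p and −0.14 for miR-29c-5p, while miR-29a-5p (0.29) and miR-29b-1-5p (−0.11) moved little.

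Within sites the same comparison gave different values, and again no member passed by edgeR, with 2 members at an unadjusted p under 0.05 at UEF, 2 at Monash and 1 at UCLA (DESeq2 was not run within sites). At UEF, where 3.86% of miRNAs were called (1.33% higher and 2.53% lower in TBI; 14 of 750 miRNAs without UEF sham 3 and 57 of 749 without UEF sham 1, from 29), miR-29c-3p was at 669, 769, 894 and 2812 CPM in sham, at 283, 389, 752 and 988 CPM in TBI− and at 265, 504, 755 and 916 CPM in TBI+ rats. Most injured UEF rats were below the median sham rat of the site, but the groups overlapped. For miR-29c-3p the log2 change was −1.08 (SE 0.41, edgeR adjusted p = 0.163), and for miR-29c-5p it was −1.06 (SE 0.32, edgeR adjusted p = 0.0575). Both were smaller without UEF sham 3, at −0.35 (edgeR adjusted p = 0.934) and −0.39 (edgeR adjusted p = 0.836), and that of miR-29a-3p turned from −0.41 to 0.25.

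At Monash (0.0% of miRNAs called) miR-29a-5p had the largest value, 1.26 (SE 0.48, edgeR adjusted p = 0.474). At UCLA (0.266% called, 0.133% in each direction) it was miR-29b-3p, with 122, 197 and 284 CPM in sham, 130, 301 and 364 CPM in TBI− and 445, 511 and 863 CPM in TBI+ rats. The UCLA TBI+ rats were above the other UCLA rats for this miRNA, and TBI stood above sham by 1.11 in log2 (SE 0.52, edgeR adjusted p = 0.416). The share of all miRNAs that part the UCLA TBI+ rats from the others was not counted. Whether the injury effect differed by site was tested as an interaction, in which 0 of 7 members and 0.932% of all miRNAs passed (7 miRNAs, and 0 without UEF sham 3). The lowest unadjusted p were those of miR-29c-5p (0.0381, edgeR adjusted p = 0.338) and miR-29c-3p (0.0448, edgeR adjusted p = 0.350). Without UEF sham 3 these edgeR p were 0.318 for miR-29c-5p and 0.174 for miR-29c-3p, unadjusted. The lowest was then that of miR-29a-5p (0.0542, edgeR adjusted p = 0.441).

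The second comparison asked whether the family at 48 h differed between injured rats with and without later epilepsy. By edgeR no member passed between TBI+ (n = 9) and TBI− rats (n = 10), nor did any other miRNA (0.0% of 751, with 15 at an unadjusted p under 0.05 and the lowest edgeR adjusted p at 0.998). 0 members had an unadjusted p under 0.05 and DESeq2 called 0. Values ran from −0.20 (SE 0.28) for miR-29c-5p to 0.34 (SE 0.23) for miR-29b-5p, with a median of 0.14 over the members against −0.00 over all miRNAs. miR-29a-3p was at 0.15 (SE 0.35, 95% interval −0.53 to 0.84).

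The sites did not go the same way here. At UCLA, with 6.52% of miRNAs called, miR-29b-3p was at 1.19 (SE 0.51, edgeR adjusted p = 0.177) and miR-29c-3p at 1.17 (SE 0.54, edgeR adjusted p = 0.215). At Monash, with 7.72% called, miR-29b-3p was at −1.48 (SE 0.59, edgeR adjusted p = 0.134), from 259 and 211 CPM in 2 TBI+ rats and 500, 564 and 907 CPM in 3 TBI− rats. At UEF (0.0% called) it was at −0.08 (SE 0.43). None of these passed by edgeR, with 1 member at an unadjusted p under 0.05 at Monash, 2 at UCLA and 0 at UEF, and the difference between the sites in this contrast was not tested.

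**Figure D2:**
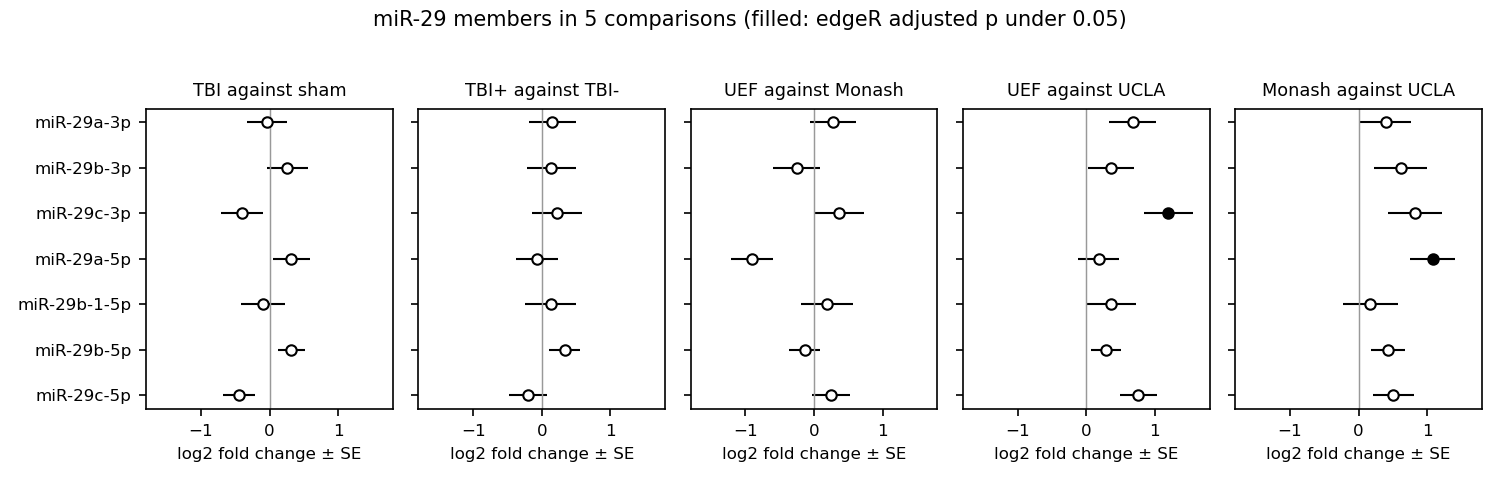
Log2 fold change of each member (points) with its SE (lines) in the 5 comparisons from the edgeR model with site and condition, in 29 rats. Filled points had an adjusted p under 0.05: miR-29c-3p for UEF against UCLA (1.20) and miR-29a-5p for Monash against UCLA (1.08).

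The third question was whether the family differed between sites. UEF rats had more miR-29c-3p than UCLA rats, and all 7 members had values above 0 between these sites. 1 of the 7 passed the test, where 9.05% of all miRNAs did (5.06% higher and 3.99% lower at UEF). The lowest, median and highest level of miR-29c-3p was 265, 754 and 2812 CPM at UEF (n = 12) and 153, 299 and 871 CPM at UCLA (n = 9). 4 of the 12 UEF rats were above the highest UCLA rat, so the sites overlapped. UEF was higher by 1.20 in log2 (SE 0.36, 95% interval 0.49 to 1.90, edgeR adjusted p = 0.0291).

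The sham rats were apart for this miRNA. UCLA sham rats had 153, 243 and 353 CPM of miR-29c-3p, all below the 4 UEF sham rats, with or without UEF sham 3 (669 to 894 CPM in the others). They were also all below the Monash sham rats (562 to 918 CPM). The same held for miR-29b-3p against Monash (122 to 284 at UCLA, 363 to 864 CPM at Monash). How many of all miRNAs part these sham groups was not counted. For miR-29c-3p between UEF and UCLA the sham rats alone gave a log2 fold change of 2.33 (edgeR adjusted p = 0.0169), and 1.57 (edgeR adjusted p = 0.0266) without UEF sham 3. The TBI rats alone gave 0.67 (edgeR adjusted p = 0.342). Sham and TBI rats were not shown to differ in this. The effect of injury by site, tested over all sites together, did not pass for miR-29c-3p (edgeR adjusted p = 0.350, and 0.582 without UEF sham 3). Whether the injury effect differed between UEF and UCLA alone was not tested. With UEF sham 3 left out the UEF to UCLA value over all rats was 0.95 (edgeR adjusted p = 0.0241). It no longer passed when UCLA sham 2 (1.04, edgeR adjusted p = 0.0726), UCLA sham 3 or UCLA TBI− 3 was left out, with edgeR adjusted p from 0.0596 in these 3 fits.

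Its 5p partner miR-29c-5p was at 0.76 (SE 0.27, edgeR adjusted p = 0.0810) between UEF and UCLA. It passed in the fits without UEF sham 1, UEF TBI+ 4 or UCLA TBI+ 1 (0.79 to 0.83, edgeR adjusted p from 0.0350). miR-29a-3p was at 0.68 (SE 0.34, edgeR adjusted p = 0.262) and reached 0.92 (edgeR adjusted p = 0.0390) without UCLA TBI+ 1, the highest UCLA rat for all 3p arms. The median log2 fold change of the members was 0.36 and that of all miRNAs 0.07.

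Between Monash and UCLA all 7 members again had values above 0 (median 0.51, all miRNAs 0.00), and 1 of them passed, where 5.59% of all miRNAs did (3.2% higher and 2.4% lower at Monash). This was the passenger strand miR-29a-5p, whose level at Monash was 10.5, 16.8 and 94.0 CPM in TBI−, 20.3 and 39.0 CPM in TBI+ and 13.8, 15.4 and 16.2 CPM in sham rats. At UCLA it ran from 7.71 to 19.9 CPM (median 11.5). 3 of the 8 Monash rats were above all UCLA rats, and 1 of them, Monash TBI− 2, stood far above the rest. Monash was higher by 1.08 in log2 (SE 0.33, edgeR adjusted p = 0.0473).

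The call of miR-29a-5p lay close to the threshold. It was lost with upper-quartile normalization (edgeR adjusted p = 0.0828), the hemolysis ratio in the model (0.0684), no robust estimation (0.0511) and the replicate number as a block (0.92, edgeR adjusted p = 0.0806), and DESeq2 kept it (adjusted p = 0.0152). Without Monash TBI− 2 the value was 0.49 (edgeR adjusted p = 0.337), and the call was kept in 7 of 29 fits with a rat left out, those without UEF sham 3, Monash sham 1, Monash sham 2, Monash TBI− 1, Monash TBI− 3, Monash TBI+ 1 and UCLA sham 2. The sham rats alone gave 0.02 (edgeR adjusted p = 0.987) and the TBI rats alone 1.65 (edgeR adjusted p = 0.0412). miR-29c-3p was at 0.82 (SE 0.39, edgeR adjusted p = 0.233), and at 1.10 (edgeR adjusted p = 0.0292) without UCLA TBI+ 1.

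Between UEF and Monash no member passed, where 9.45% of all miRNAs did (3.99% higher at UEF, 5.46% lower). 1 member had an unadjusted p under 0.05 and DESeq2 called 1, in both cases miR-29a-5p. miR-29a-5p was at −0.90 (SE 0.31, edgeR adjusted p = 0.0572; DESeq2 adjusted p = 0.0218) and at −0.33 without Monash TBI− 2. It passed in the fits without Monash TBI− 1, Monash TBI+ 1 or UCLA TBI+ 1 (−0.95 to −1.01, edgeR adjusted p from 0.0437). The other members ran from −0.25 for miR-29b-3p to 0.37 for miR-29c-3p.

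**Figure D3:**
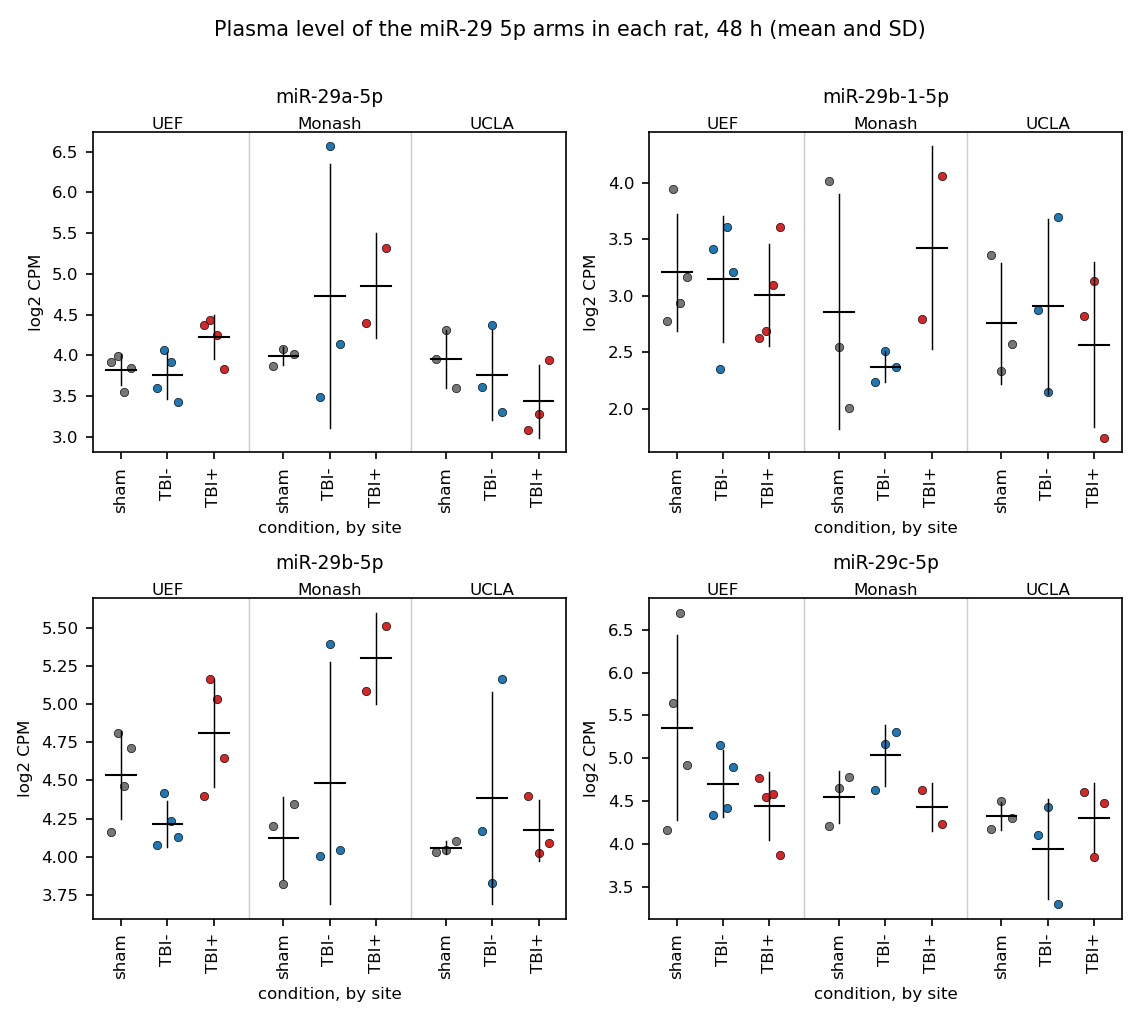
Level of the 4 passenger strands (log2 CPM) in each of 29 rats by site and condition, with points for rats, long horizontal bars for the group mean and vertical lines for its SD. Monash TBI− 2 is the highest point for miR-29a-5p (94.0 CPM), and UEF sham 3 for miR-29c-5p (103 CPM).

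A ratio of 2 members within a rat depends neither on the total nor on the scaling. There were 4 ratios in 5 comparisons, 20 exact permutation tests in all, and 3 passed after Benjamini-Hochberg adjustment, all of miR-29a-3p to miR-29c-3p. The ratio is the number of miR-29a-3p counts for each miR-29c-3p count, and it was 13.5 ± 3.75 (SD, n = 29). In UEF sham rats it was 8.5, 11.3, 8.1 and 6.1, in UEF TBI− rats 18.8, 14.7, 11.8 and 12.3, and in UEF TBI+ rats 14.6, 12.6, 13.1 and 10.5. 7 of the 8 injured UEF rats were above the highest UEF sham rat.

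At Monash the ratio was 10.8, 13.7 and 8.1 in sham, 10.2, 13.7 and 11.5 in TBI−, and 14.4 and 15.4 in TBI+ rats. At UCLA it was 18.9, 15.0 and 15.4 in sham, 24.4, 15.8 and 14.2 in TBI− and 16.4, 16.6 and 13.5 in TBI+ rats. The groups overlapped at both sites, with 2 of 5 injured Monash rats and 1 of 6 injured UCLA rats above the highest sham rat of the site.

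Over all sites the ratio was higher in TBI than in sham rats by 0.36 on the log2 scale (two-sided exact permutation within sites, p = 0.00545, adjusted over 20 tests 0.0363). The site values were 0.69 in UEF rats (exact p = 0.00404), 0.28 in Monash rats (exact p = 0.232) and 0.02 in UCLA rats (exact p = 0.964). When UEF sham 3 was left out the UEF value was 0.67 (exact p = 0.0121) and the value over all sites 0.33 (exact, adjusted p = 0.0858). The call was kept in 13 of 29 fits with a rat left out. It was lost, at 0.28 to 0.38 with exact adjusted p up to 0.133, without UEF sham 1, 3 or 4, UEF TBI− 1 or 2, UEF TBI+ 1, 2 or 3, Monash sham 3, Monash TBI− 2 or 3, Monash TBI+ 1 or 2, UCLA sham 2 or 3, or UCLA TBI− 1. Between TBI+ and TBI− rats it differed by −0.04 (exact p = 0.750).

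Between sites the ratio was lower at UEF than at UCLA by 0.53 (log2 difference −0.53, two-sided exact permutation within conditions, p = 0.00191, adjusted 0.0363) and lower at Monash than at UCLA (−0.45, exact p = 0.00375, adjusted 0.0363). 13 of the 20 UEF and Monash rats were below the lowest UCLA rat (13.5). The UEF to UCLA call was lost without UCLA sham 2, UCLA sham 3 or UCLA TBI− 1 (−0.48 to −0.51, exact adjusted p from 0.0567). The Monash to UCLA call was lost without Monash sham 3, Monash TBI− 1, 2 or 3, Monash TBI+ 1, UCLA sham 1, 2 or 3, or UCLA TBI− 1 (−0.37 to −0.49, exact adjusted p from 0.0515). UEF was lower than UCLA in each condition, by log2 differences of −0.98 in sham (exact p = 0.0571), −0.32 in TBI− (exact p = 0.314) and −0.29 in TBI+ rats (exact p = 0.114). In sham rats alone the difference was −0.62 for Monash against UCLA (exact p = 0.100, the smallest that 3 against 3 rats can give).

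**Figure D4:**
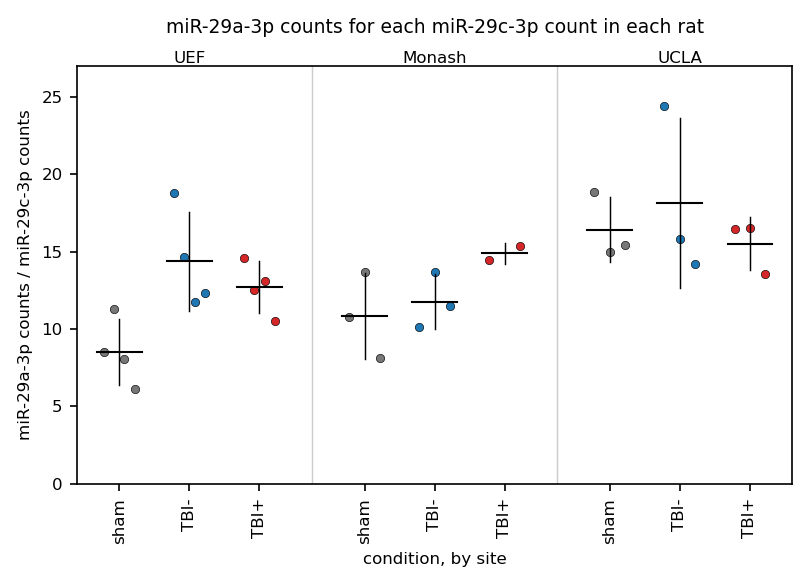
miR-29a-3p counts for each miR-29c-3p count in each of 29 rats by site and condition, on a linear axis from 0. Points are rats, long horizontal bars group means and vertical lines SDs. The UEF sham rats lie between 6.1 and 11.3, and the UCLA rats between 13.5 and 24.4.

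The liver miRNAs also differed between groups of rats. miR-122-5p took 28.1% to 55.1% of all counts in UEF sham rats, 1.58% to 22.6% in UEF TBI− and 4.43% to 13.3% in UEF TBI+ rats. The 4 liver markers together (miR-122-5p, miR-122-3p, miR-192-5p, miR-194-5p) took 1.98% to 58.0% at UEF, 2.70% to 13.6% at Monash and 1.06% to 3.49% at UCLA, and none was at 0 in all rats. All 4 were higher at UEF than at UCLA (5.06% of all miRNAs were), with miR-122-5p at 3.49 (SE 0.55, edgeR adjusted p = 3.9e-05). In TBI 2 of 4 fell, where 0.533% of all miRNAs did. These were miR-122-5p (−1.65, edgeR adjusted p = 0.0473) and miR-194-5p (−1.52, edgeR adjusted p = 0.0340). At UEF miR-192-5p was higher than at Monash (1.26, edgeR adjusted p = 0.0367, 3.99% of all miRNAs). At Monash miR-122-5p was higher than at UCLA (2.05, edgeR adjusted p = 0.0171, 3.2% of all miRNAs). For the injury effect by site miR-194-5p passed (edgeR adjusted p = 0.0449, 0.932% of all miRNAs). Without UEF sham 3 all 4 were still higher at UEF than at UCLA, 2 of 4 were higher at Monash than at UCLA, and 0 fell in TBI. No liver marker then passed for UEF against Monash, and no miRNA for the injury effect by site. The part of the liver miRNAs in the miR-29c values was not tested.

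Markers of other sources did not all move with site. Of the red cell markers 0 of 5 passed in any of the 5 comparisons, and their share was 6.82% to 43.1% of counts over the rats. Of the white cell and platelet markers 2 of 4 were lower at UEF than at Monash (5.46% of all miRNAs were). Against UCLA, 2 of 6 muscle markers and 2 of 5 vessel and connective tissue markers were higher at UEF (5.06% of all miRNAs), and 3 of 6 and 2 of 5 at Monash (3.2%). Of the neuron markers miR-129-5p was higher at UEF than at Monash (0.71, edgeR adjusted p = 0.0472) and miR-128-3p lower at UEF than at UCLA (−0.81, edgeR adjusted p = 0.0273), and 2 of 5 rose in TBI (0.666% of all miRNAs), miR-128-3p by 0.99 (SE 0.22, edgeR adjusted p = 0.0172) and miR-129-5p by 0.94 (SE 0.20, edgeR adjusted p = 0.0172). All counts in this group of markers were the same without UEF sham 3. The part of these markers in the miR-29 values was not tested either.

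Other miRNAs known for roles like those of miR-29 were tested alongside, as lists chosen by known role. Of 13 rows of miRNAs with known roles in fibrosis and extracellular matrix, 0 passed between TBI and sham rats and 0 between TBI+ and TBI−, with medians of −0.28 and 0.14 (all miRNAs 0.03 and −0.00). 5 of 13 were higher at UEF than at UCLA, where 5.06% of all miRNAs were (median 0.75, all miRNAs 0.07). These were miR-133a-3p/miR-133b-3p, a muscle miRNA (4.19, SE 0.95), miR-145-5p (2.16, SE 0.40) and miR-143-3p (1.79, SE 0.47) of smooth muscle, miR-192-5p of liver and gut (1.62, SE 0.38), and miR-199a-5p of fibroblasts (0.92, SE 0.28), with edgeR adjusted p from 0.000222 to 0.0315. The count without UEF sham 3 was 4, with miR-199a-5p lost. The other 4 are also rows of the muscle, vessel or liver markers, so they are not counted anew.

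The same list had 3 members higher at Monash than at UCLA (miR-133a-3p/miR-133b-3p, miR-143-3p and miR-145-5p, median 0.55), where 3.2% of all miRNAs were. It had 1 higher at UEF than at Monash (miR-192-5p), where 3.99% of all miRNAs were, and 0 without UEF sham 3. For the injury effect by site miR-101b-3p passed (edgeR adjusted p = 0.0318), where 0.932% of all miRNAs did. Without UEF sham 3 no miRNA passed for that effect. Of 3 miRNAs known to target a DNA methyltransferase (miR-148a-3p, miR-148b-3p, miR-152-3p), 0 passed in any of the 5 comparisons, with a median of −0.47 between TBI and sham and −0.48 between UEF and UCLA. Without UEF sham 3 miR-152-3p passed as lower at UEF than at UCLA, with a list median of −0.72 (all miRNAs 0.08). With all rats 3.99% of all miRNAs passed as lower at UEF, and the share without UEF sham 3 is not given here.

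Likeness was measured as the SD over rats of the log2 ratio of the counts of 2 miRNAs, among the 588 miRNAs whose count was 10 or more in all 29 rats. A small SD means that the ratio hardly varied. It is given as a description, since all pairs share the 29 libraries. Among the 3p arms the SD of miR-29a-3p to miR-29b-3p was 0.38 (rank 4 of 587 partners of miR-29a-3p), that of miR-29a-3p to miR-29c-3p 0.42 (rank 5) and that of miR-29b-3p to miR-29c-3p 0.53 (rank 24 of the partners of miR-29b-3p). Between arms of 1 family letter, miR-29c-3p to miR-29c-5p had about the same SD as the last pair, 0.56 (rank 22 of the partners of the 3p arm). On the same side miR-29a-3p to miR-29a-5p had 1.01 (rank 317) and miR-29b-3p to miR-29b-5p 0.94 (rank 264). Among the partners of the 5p arm the ranks were 51 for miR-29c, 430 for miR-29a and 490 for miR-29b.

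The 3 closest partners of each 3p arm included miRNAs annotated on the miR-29 loci. For miR-29a-3p they were miR-3556b (0.13), miR-3587 (0.28) and miR-30b-5p (0.37), for miR-29b-3p they were miR-29a-3p (0.38), miR-3556a (0.39) and miR-3587 (0.40), and for miR-29c-3p they were miR-3587 (0.35), miR-21-5p (0.41) and miR-29a-3p (0.42). At the single sites the closest 3 of miR-29a-3p held miR-3556b at every site, miR-3587 at UCLA and miR-30b-5p at none. Those of miR-29b-3p held miR-3587 at Monash and UCLA, miR-3556a at Monash and miR-29a-3p at none. Those of miR-29c-3p held miR-3587 at every site, miR-21-5p at UEF and miR-29a-3p at none. The passenger strands had other partners: miR-362-3p, miR-6323 and miR-3558-5p for miR-29a-5p (0.50 to 0.57), miR-7a-1-3p, miR-679 and miR-434-5p for miR-29b-5p (0.46 to 0.47), and miR-34a-5p, miR-10a-3p and miR-27b-3p for miR-29c-5p (0.39 each). Most of these partners of the passenger strands were not among the closest 3 at the single sites: miR-6323 and miR-3558-5p were so for miR-29a-5p at Monash, miR-7a-1-3p for miR-29b-5p at UCLA and miR-27b-3p for miR-29c-5p at Monash, and the others at none.

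The miRNAs miR-3556a, miR-3556b and miR-3587 are shown because they are annotated on the strand opposite the miR-29 3p arms, in lower case throughout.
miR-3556a: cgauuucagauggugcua
miR-3556b: accgauuucaaauggugcua
miR-3587: aacacugauuucaaauggugc
In GRCr8 miR-3556a (chr4:60617972-60617989, plus strand) lay opposite miR-29a-3p, miR-3587 (chr4:60618342-60618362, plus strand) opposite miR-29b-3p of Mir29b1, and miR-3556b (chr13:109099412-109099431, minus strand) opposite miR-29c-3p. Each was the exact reverse complement of the stretch it faced, of 18, 21 and 20 bases. The reverse complement of miR-3556b also matched miR-29a-3p and miR-29b-3p with 1 mismatch each. Whether the counting used strand is not stated in the sources used here, so counts of a miRNA and of the one opposite cannot be fully told apart.

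miR-3556b followed miR-29a-3p, which is encoded on another chromosome, more closely than miR-29c-3p, which it faces. It had 134 to 1188 counts per rat (median 407), and these were 2.11% to 3.00% of the miR-29a-3p counts of the same rat (median 2.67%). Against miR-29c-3p its share ran from 15.4% to 73.0% (median 34.8%), and against miR-29b-3p from 26.1% to 80.0%. The SD of the log2 ratio was 0.13 to miR-29a-3p (rank 1 of 587; 0.14 at UEF, 0.11 at Monash, 0.11 at UCLA), 0.45 to miR-29c-3p (rank 12) and 0.40 to miR-29b-3p. miR-3556b was the closest partner of miR-29a-3p at each of the 3 sites.

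The other 2 did not hold such a fixed share. miR-3556a was 0.539% to 2.44% of the miR-29a-3p counts it faces (SD of the log2 ratio 0.44), and miR-3587 was closer to miR-29a-3p (0.28) than to miR-29b-3p, which it faces (0.40). None of the 3 passed between TBI and sham rats (0.30 for miR-3556a, −0.14 for miR-3556b, −0.20 for miR-3587) or between UEF and UCLA at an edgeR adjusted p under 0.05 (0.83, 0.51 and 0.63, with edgeR adjusted p = 0.0800, 0.468 and 0.278).

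**Figure D5:**
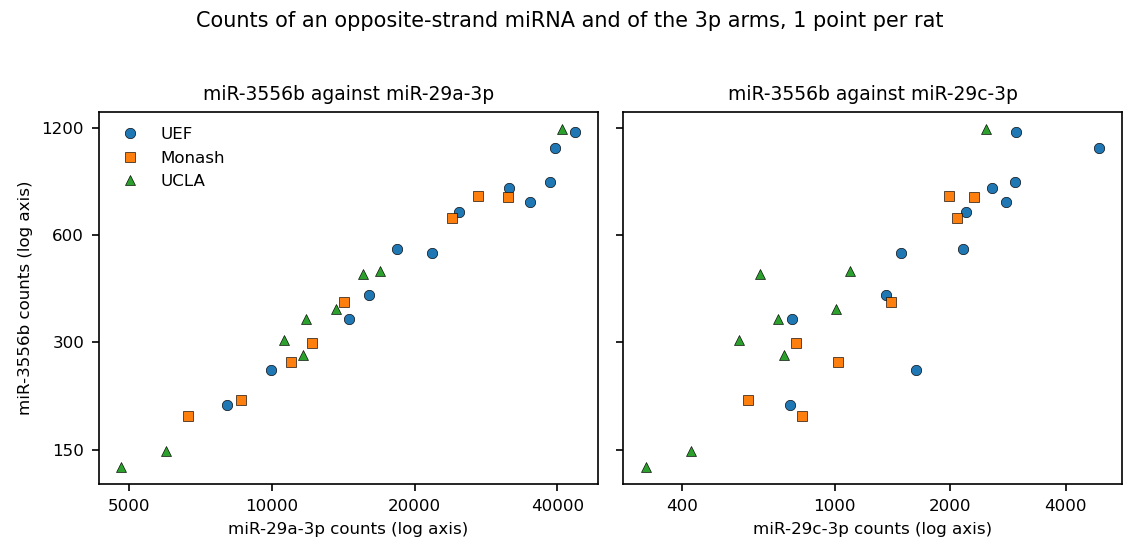
Counts of miR-3556b against those of miR-29a-3p (left) and miR-29c-3p (right) in each of 29 rats, on log axes, with the site as the symbol. On the left all rats lie along 1 line, with miR-3556b at 2.11% to 3.00% of miR-29a-3p, and on the right they scatter from 15.4% to 73.0%.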

How the data were processed

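Small RNA libraries of plasma RNA were made with the QIASeq miRNA kit and sequenced as a service. Per the methods and the submitters' processing notes, the authors used cutadapt for trimming and Bowtie for mapping, against Rnor_6.0. The deposited table holds raw counts of 754 miRNAs in 29 rats, as whole numbers and without normalization. 7 names join several mature miRNAs. Whether reads of one molecule were merged by their identifiers, how many mismatches were allowed and whether strand was used are not given in the sources used here. Members are every miR-29a, miR-29b or miR-29c row. The members, the lists and the tests were chosen with earlier results of these data known. Other miRNAs named are the 3 most alike for each member with at least 10 counts in every rat, those of the lists, and miRNAs annotated opposite a member. Values of the last group were seen before they were described.

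The main test of the counts was the quasi-likelihood F test of edgeR 4.0.16 with robust estimation, in R 4.3.3 with limma 3.58.1. Low rows were removed by filterByExpr (minimum count 10), libraries were scaled by TMM, and the model held site and condition. P-values were adjusted by Benjamini and Hochberg's method across all 751 miRNAs that remained, and 0.05 was the limit for a call. SE is the log2 fold change divided by the square root of F. TBI against sham is the mean of the TBI− and TBI+ terms. Site effects of injury came from a model with 1 mean for each site and injury group, and those of outcome from one with a mean for each of the 9 groups. The biological coefficient of variation was 0.475. Log2 CPM used a prior count of 2. Ratios had 0.5 added to each count and were tested by two-sided exact permutation within site or condition. Each rat is a library and the unit of every test. Alternatives were DESeq2 1.42.0, other scalings and filters, a hemolysis ratio (miR-451-5p to miR-23a-3p) and the replicate number in the model, subsets of rats, each rat left out, no robust estimation, and sham rats without UEF sham 3, the last pair chosen after seeing the data. The study's own tool for such tests was DESeq2. Scripts were tested on simulated data. Tables, permutations and plots were made with scipy 1.17.1, pandas 2.3.3, numpy 2.4.6 and matplotlib 3.10.9 under Python 3.11.15. Sequences are from RefSeq (GRCr8).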

Additional observations from a re-analysis of the deposited data

Results flagged for a closer look

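Of 56 groups of 4 to 10 rats examined for a value far from the others, 2 had one, where chance gives about 1 in 20. Monash TBI− 2 had 94.0 CPM of miR-29a-5p (305 counts), the highest of the 10 TBI− rats, of which the next had 19.9 CPM (49 counts). UCLA TBI− 3 had 35.1 CPM of miR-29b-5p (89 counts), the highest of the 9 UCLA rats, of which the next had 20.3 CPM (58 counts). Monash TBI− 2 also had the highest miR-29b-5p level of its site group, 41.3 CPM against 15.3 and 15.7 CPM.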

How the results depend on the processing

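With 29 libraries in 9 groups of 2 to 4 rats, and passenger strands at 4 to 305 counts, small differences could not be detected. Members counted as passing between TBI and sham rats, between TBI+ and TBI− rats and for the effect of injury by site stayed at 0 under every alternative run, and with each rat left out (0 to 0). For UEF against Monash the count was 1 with DESeq2 and 1 with RLE size factors (miR-29a-5p), and 0 to 1 with a rat left out. For UEF against UCLA it was 2 with DESeq2 and 2 with at least 10 counts in every rat (miR-29c-5p added), 0 in TBI rats alone, and 0 to 3 with a rat left out. For Monash against UCLA it was 0 with upper-quartile normalization, 0 with the hemolysis ratio in the model, 0 without robust estimation, 0 in sham rats alone and 0 to 1 with a rat left out. Of the 20 ratio tests 3 passed, and 0 to 3 with a rat left out. The cause of these changes was not tested.

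The replicate numbers did not pair the rats: same-numbered rats of different groups had a mean correlation of −0.02 (−0.42 to 0.40, n = 103 pairs) and other pairs of 0.01 (n = 269), and 3 of 29 rats were closest to their own number. With the replicate block 0 members passed for Monash against UCLA (miR-29a-5p 0.92, edgeR adjusted p = 0.0806), the TBI to sham value of miR-29a-3p was 0.011 and the TBI+ to TBI− value of miR-29a-5p was 0.013.

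Values that changed sign had not passed the test. Between TBI and sham these were, at UCLA on its own, miR-29a-3p 0.67, miR-29a-5p −0.32, miR-29b-1-5p 0.055 and miR-29c-3p 0.66, at UEF miR-29b-3p −0.016, and at Monash miR-29b-3p −0.16 and miR-29c-5p 0.29. Between TBI+ and TBI− they were, at UEF, miR-29a-3p −0.090, miR-29a-5p 0.49, miR-29b-1-5p −0.18 and miR-29b-3p −0.078, at Monash miR-29a-3p −0.66, miR-29b-3p −1.48 and miR-29c-3p −0.99, at UCLA miR-29b-1-5p −0.41, miR-29b-5p −0.33 and miR-29c-5p 0.35, and with no site term miR-29b-3p −0.041. For UEF against Monash miR-29b-5p was 0.42 in sham rats alone and miR-29c-5p −0.21 in TBI rats alone, and for UEF against UCLA miR-29a-5p was −0.16 in sham rats alone. In sham rats with UEF sham 3 also left out, an alternative chosen after seeing the data, miR-29a-3p was −0.27 and miR-29b-5p 0.42 for UEF against Monash, and miR-29a-5p −0.14 for UEF against UCLA and −0.011 for Monash against UCLA, where miR-29c-3p passed (1.49, edgeR adjusted p = 0.0331).

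With each rat left out in turn, values that crossed 0 ran as follows. Between TBI and sham miR-29a-3p ran from −0.16 to 0.23 (the latter without UEF sham 3) and miR-29b-1-5p from −0.25 to 0.093. Between TBI+ and TBI− miR-29a-3p ran from −0.10 to 0.29, miR-29a-5p from −0.16 to 0.39, miR-29b-1-5p from −0.12 to 0.31, miR-29b-3p from −0.077 to 0.31 and miR-29c-3p from −0.052 to 0.35. For UEF against Monash miR-29b-5p ran from −0.27 to 0.035 and miR-29c-5p from −0.00053 to 0.33, and for Monash against UCLA miR-29b-1-5p from −0.13 to 0.37. Among log2 ratios, miR-29a-3p to miR-29c-3p between TBI+ and TBI− ran from −0.091 to 0.033, miR-29b-3p to miR-29a-3p from −0.14 to 0.034, and miR-29a-3p to miR-29a-5p from −0.32 to 0.10. miR-29a-3p to miR-29a-5p ran from −0.40 to 0.049 between TBI and sham and from −0.54 to 0.034 for Monash against UCLA, and miR-29c-3p to miR-29c-5p from −0.19 to 0.072 between TBI and sham.

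Over all miRNAs the 9 called between TBI and sham became 25 with DESeq2, 17 with at least 10 counts in every rat, 4 with the hemolysis ratio, 5 with the replicate block and 15 with no site term. The 71 called for UEF against Monash became 109 with DESeq2, 31 with the block, 38 in sham and 0 in TBI rats alone, the 68 for UEF against UCLA became 38 in either, and the 42 for Monash against UCLA became 23 with the hemolysis ratio, 22 in sham and 23 in TBI rats alone. The 7 called for the injury effect by site became 17 with DESeq2, 3 with at least 10 counts in every rat, and 0 with the hemolysis ratio or the block. That of sham rats alone without UEF sham 3 was 47, 29 and 60 for the 3 site comparisons in this order. With a rat left out the counts ran from 5 (without UEF sham 2 or 3) to 16 (without Monash sham 2) between TBI and sham, from 14 (without UEF sham 3) to 57 (without UEF sham 1) at UEF, from 35 (without Monash TBI− 2) to 117 (without Monash TBI+ 2) for UEF against Monash, from 25 (without Monash sham 3) to 58 for Monash against UCLA, and from 0 (without UEF sham 3 or UEF TBI+ 2) to 10 for the injury effect by site.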
